A study of Rattus norvegicus with 23 samples.

Results

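Hearts of rats with both a partial nephrectomy and an arteriovenous fistula (AVF+NX, 4 libraries) were compared with hearts of sham-operated rats (Sham, 3 libraries). The 7 libraries were chosen by their labels for tissue and operation, out of 23 in the series. All animals were Sprague-Dawley rats, 13 weeks old, and every heart was taken 4 weeks after surgery. AVF+NX rats had lost 5/6 of their kidney mass, a standard rodent model of chronic kidney disease, and carried a fistula in the neck, with the jugular vein joined end-to-side to the carotid artery, the kind of shunt made as an access for dialysis. Sham rats had neither. The 4 hearts after nephrectomy alone (NX) are shown beside them because they entered the same fit. No group had a fistula without nephrectomy, so the parts of the 2 operations cannot be told apart in this comparison. The labels do not say which chamber of the heart was sampled, and replicates are named only as biological replicates. The p-values therefore measure the spread between these samples.

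A large arteriovenous shunt returns arterial blood straight to the veins and loads the heart with volume, while loss of kidney mass brings pressure load, retained solutes and salt. The heart is known to answer load with natriuretic peptides, fetal forms of contractile proteins, lower use of fatty acids and more extracellular matrix. In bulk tissue each value is an average over cardiomyocytes, fibroblasts, endothelium and blood cells. Fewer cells of a type and less RNA per cell cannot be told apart in such data.

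Levels are given as counts per 1000000 (CPM), the count of a gene scaled to the library's normalised total, and are listed in the order of the replicate numbers, 1 to 4 for AVF+NX and NX and 1 to 3 for Sham. Cardiomyocyte messengers were abundant in every library. Myh6, the alpha myosin heavy chain of cardiac muscle, stood at 20754–27928 CPM in AVF+NX hearts and at 23645–33117 CPM in Sham hearts. Myl7, a myosin light chain of atrial muscle, was at 37.5, 22.1, 14.9 and 5.17 CPM in AVF+NX hearts and at 66.8, 3.21 and 7.18 CPM in Sham hearts. It stayed at or below 66.8 CPM in all 7 libraries and varied most within the Sham group.

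The libraries also differed in a property that moves with the groups. An index of small structured RNA, the mean centred log2 CPM of 63 genes named after such RNA families, was 0.828, 0.840 and 0.791 in the Sham hearts. In the AVF+NX hearts it was -0.277, -0.511, -0.885 and -0.827. Groups did not overlap (difference -1.44, exact two-sided permutation test, p = 0.0286, the smallest that 4 against 3 libraries allow). NX hearts 1 and 4 stood at 1.00 and 0.675, with the Sham hearts, and NX hearts 2 and 3 at -1.02 and -0.623, with the AVF+NX hearts. Total counts were 9894716 to 11866042 in Sham hearts, 27988586, 48079431, 44661599 and 11889483 in AVF+NX hearts, and 9605973 to 22679092 in NX hearts. AVF+NX heart 4 had the index of its group at the depth of a Sham heart. Genes of the mitochondrial chromosome took 22.1–26.02% of the counts in AVF+NX hearts and 20.6–22.1% in Sham hearts (exact permutation p = 0.0857). Between AVF+NX and Sham hearts alone, the index and the operations cannot be told apart. Each gene was therefore also fitted with the index as a covariate over all 11 heart libraries, called the index-adjusted value here. Its slope rests largely on the NX hearts, the only group with libraries on both sides of 0.

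**Figure D1:**
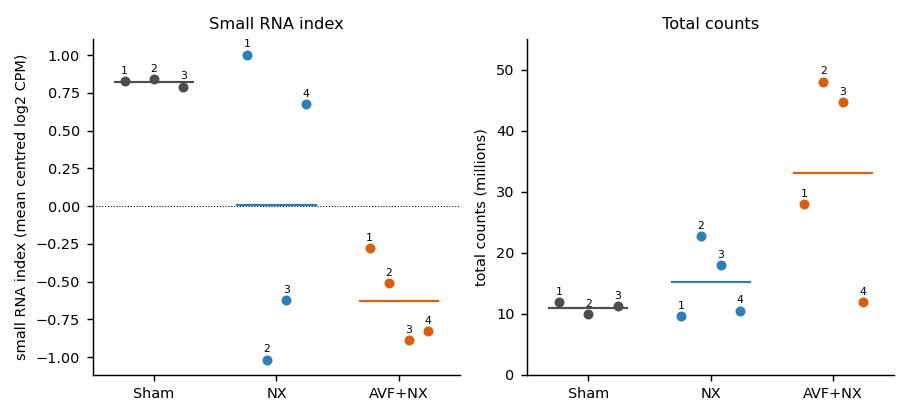
Small RNA index (left, mean centred log2 CPM of 63 genes) and total counts in units of 1000000 (right) of each heart library, numbered by replicate, with group means as lines. The 3 Sham hearts sit between 0.791 and 0.840 and the 4 AVF+NX hearts between -0.885 and -0.277, while the NX hearts lie on both sides of 0.

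Of 12794 genes tested, 4357 (34.1%) were called at an adjusted p below 0.05 by edgeR's quasi-likelihood test with Benjamini-Hochberg adjustment. In AVF+NX hearts 1975 genes were higher (15.4%) and 2382 lower (18.6%). These are the background shares for the gene groups described next, and the median log2 fold change over all genes tested was 0.01. AVF+NX and Sham values did not overlap in 47.4% of genes. The count was 2724, 2803 or 2794 without Sham heart 1, 2 or 3, and 2039 genes kept their call when each of the 7 libraries was left out in turn. With the index as a covariate 58 genes were called (0.453%), 30 higher (0.234%) and 28 lower (0.219%), and 2405 had an unadjusted p below 0.05. With log2 total count as a covariate 2 were called. Between AVF+NX and NX hearts 43 genes (0.336%) were called in the same fit, and between NX and Sham hearts 0 by edgeR, with 2662 at an unadjusted p below 0.05. These covariates end most calls named below. With the index as a covariate, 161 of the 190 called genes printed lost their call. The index-adjusted value is given for only a part of the genes, and a gene printed without it did not thereby keep its call.

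The called genes differed in where the NX hearts lay. Among the 4357 called genes, NX hearts 2 and 3 were nearer to the AVF+NX mean than to the Sham mean in 81.0% and 83.6%, against 18.9% and 21.2% for NX hearts 1 and 4. Gpx4, the peroxidase that repairs oxidised membrane lipids, shows the first kind, at 8.14, 7.98, 7.53 and 10.7 CPM in AVF+NX hearts and 50.1, 47.5 and 50.7 CPM in Sham hearts. NX hearts 1 to 4 were at 44.5, 7.39, 10.4 and 43.7 CPM, so NX hearts 2 and 3 sat with AVF+NX and NX hearts 1 and 4 with Sham. Its log2 fold change of -2.55 (SE 0.56, adjusted p = 0.00852) was -0.72 after index adjustment. Eci1, an isomerase needed to burn unsaturated fatty acids, shows the other kind, at 88.1, 101, 106 and 95 CPM against 165, 173 and 158 CPM. All 4 NX hearts lay between the groups at 134–143 CPM, and its log2 fold change was -0.76 (SE 0.08, adjusted p = 0.000613) and -0.82 after adjustment.

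**Figure D2:**
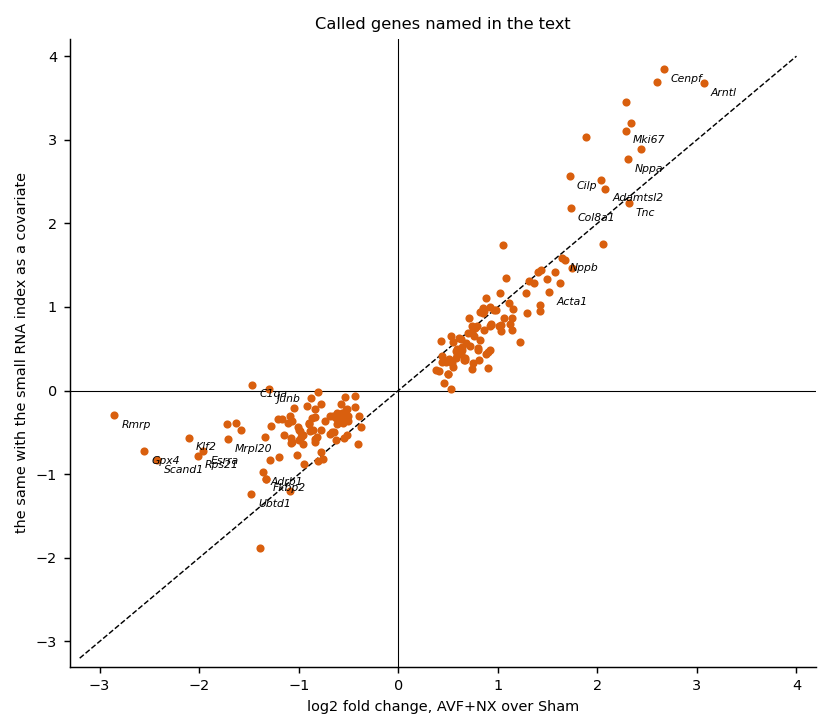
Log2 fold change of each called gene named in the text (horizontal) against its index-adjusted value (vertical), with the line of equal values dashed. Nppa, Mki67, Cilp and Adamtsl2 lie above the line, while Rmrp (-0.30), C1qa (0.07) and Junb (0.02) lie near 0 on the vertical axis.

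The natriuretic peptide genes, which cardiomyocytes switch on when stretched, were higher in AVF+NX hearts. Nppa (ENSRNOG00000008176), the precursor of atrial natriuretic peptide, was at 901, 329, 187 and 201 CPM in AVF+NX hearts and 79.5, 64.1 and 102 CPM in Sham hearts. AVF+NX heart 1 stood far above the other 3, and no AVF+NX heart fell below the highest Sham heart. Its log2 fold change was 2.30 (SE 0.68, adjusted p = 0.0279), and its call ended without Sham 1, 2 or 3 (adjusted p = 0.064 to 0.0896), with no count filter (adjusted p = 0.0557) or with the replicate number as a block (adjusted p = 0.0769). Nppb (ENSRNOG00000008141, chromosome 5, bases 164796185 to 164797531, plus strand), the precursor of brain natriuretic peptide, was at 248, 349, 317 and 161 CPM against 118, 83.1 and 56.8 CPM. All 4 AVF+NX hearts were above all Sham hearts, a 3.13-fold difference (log2 1.64, SE 0.37, adjusted p = 0.00826). The NX hearts were at 81.4, 152, 133 and 209.7 CPM, and the index-adjusted values were 2.77 for Nppa and 1.59 for Nppb, with adjusted p of 0.208 and 0.212.

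Of 29 genes listed as natriuretic and stretch genes, 24 were tested, and 8 rose and 2 fell (median 0.17). Edn1, the vasoconstrictor and growth factor endothelin 1, was at 3.53, 1.77, 1.91 and 2.32 CPM against 0.489, 1.14 and 1.15 CPM (log2 1.37), and its call ended without Sham 1 (adjusted p = 0.0697). Calcrl and Ramp2 together form the adrenomedullin receptor, and both rose. Calcrl went from 53.9–56.9 CPM to 82.97–113 CPM (log2 0.80, adjusted p = 0.00567) and Ramp2 from 21.1–26.6 CPM to 29.9–46.9 CPM (log2 0.74, adjusted p = 0.00746). Rcan1, a target and inhibitor of calcineurin, was at 351, 388, 451 and 299 CPM against 241, 199.9 and 167 CPM (log2 0.88, SE 0.22, adjusted p = 0.0108). Ankrd1, a stretch sensor of the sarcomere, was at 5164, 3587, 3704 and 4816 CPM against 2126, 2485 and 2338 CPM, and its call ended without Sham 1 (adjusted p = 0.059). NX hearts 2 and 3 were at 3975 and 4496 CPM and NX hearts 1 and 4 at 2264 and 2261 CPM, and the index-adjusted log2 value was 0.27. The falls were in Csrp3, the muscle LIM protein of the Z-disc (log2 -0.51, index-adjusted -0.53), and in Furin, a protease that cleaves the Nppb precursor (log2 -0.54). For Furin, its call ended without AVF+NX 1 or 3 or Sham 2 or 3 (adjusted p = 0.0534 to 0.0891). Without Sham heart 1 the count of rises was 4.

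Most contractile protein genes were not called or fell, and skeletal actin rose. Of 30 sarcomere and Z-disc genes tested, 3 rose and 9 fell (median -0.17), and 6 of the falls kept their call when each of the 7 libraries was left out in turn. Acta1, the skeletal actin that the loaded heart re-expresses, was at 2092, 912, 785 and 1131 CPM in AVF+NX hearts and 307, 364 and 622 CPM in Sham hearts. AVF+NX heart 1 was again the highest, and the groups did not overlap (log2 1.51, SE 0.46, adjusted p = 0.0296). For Acta1, its call ended without AVF+NX 1 or Sham 1 or 2 (adjusted p = 0.0584 to 0.0972), with no count filter (adjusted p = 0.0691) or with the replicate number as a block (adjusted p = 0.0757). The myosin heavy chains did not pass. Myh7, the slow beta form, was at 7044, 6940.2, 5042 and 5976 CPM against 6951, 11813 and 4958 CPM (log2 -0.34, adjusted p = 0.367), with the widest spread inside the Sham group. Its log2 value was 0.08 without Sham heart 2. Tnni3 and Tnnc1, the inhibitory and calcium-binding subunits of cardiac troponin, fell. Tnni3 was at 2769, 2722, 3105 and 3553 CPM against 4945, 4562 and 4201 CPM (log2 -0.59, SE 0.13, adjusted p = 0.00592), and Tnnc1 had a log2 fold change of -0.50 (SE 0.08). Myl3, the ventricular essential light chain, fell by 0.51 on the log2 scale, from 6432–6598 CPM to 4290.2–4892 CPM.

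Most calcium handling genes were not called, and those that were went both ways. Atp2a2, the pump that refills the sarcoplasmic reticulum, was at 14324–14882 CPM against 12295–14483 CPM (log2 0.12, adjusted p = 0.338). Pln, the inhibitor of that pump, was at 4869, 5405, 6549.8 and 6276 CPM against 4001, 4151 and 3880.1 CPM (log2 0.53, adjusted p = 0.0206). Its index-adjusted value was 0.02, and its call ended without AVF+NX 3 or Sham 1, 2 or 3 (adjusted p = 0.0519 to 0.0692). Jph2, which holds the transverse tubule against the sarcoplasmic reticulum, fell without overlap, from 635, 605 and 565 CPM to 354, 336, 329 and 389 CPM (log2 -0.77, SE 0.13, adjusted p = 0.00219, index-adjusted -0.47). Of 22 calcium handling genes tested, 3 rose (13.6%) and 4 fell (18.2%), near the shares over all genes tested (15.4% and 18.6%). No rise and 1 fall kept its call when each of the 7 libraries was left out in turn.

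Most of the potassium and sodium channel genes that were called fell. Of 31 channel and gap junction genes tested, 11 fell and 3 rose (median -0.17), and the falls numbered 7 without Sham 1 and 6 without Sham 2. Kcnj11, the pore of the ATP-sensitive potassium channel, was at 98.7, 89.8, 87.1 and 103 CPM against 186, 197 and 182 CPM, with no overlap (log2 -0.99, SE 0.14, adjusted p = 0.00167). It was called after index adjustment too (log2 -0.59, adjusted p = 0.0491). Kcnh2, the channel of the rapid repolarising current, was at 36.8, 35.1, 40.9 and 50.4 CPM against 82.2, 80.6 and 73.7 CPM (log2 -0.96, index-adjusted -0.64). Scn4b, an accessory subunit of sodium channels, had a log2 fold change of -0.97.

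Most adrenergic genes that were called fell, among them the main beta receptor. Beta-adrenergic signalling raises the force and rate of the heartbeat. Adrb1 (ENSRNOG00000017002), the main beta receptor of cardiomyocytes, was at 8.29, 6.09, 7.38 and 10.2 CPM in AVF+NX hearts and 22.7, 18.01 and 19.3 CPM in Sham hearts. NX hearts were at 15.8, 9.98, 9.88 and 12.6 CPM, below every Sham heart, and NX hearts 2 and 3 were within the AVF+NX values. The AVF+NX level was 2.56-fold below Sham (log2 -1.35, SE 0.19, adjusted p = 0.00171), with an index-adjusted log2 value of -0.98 (adjusted p = 0.0682). Adra1d, an alpha-1 receptor, went from 12.1–16.5 CPM to 4.17–9.27 CPM (log2 -1.09, index-adjusted -1.20). Downstream, the adenylyl cyclase Adcy5 (log2 -0.64) and Prkaca, the catalytic subunit of protein kinase A (log2 -0.62), fell. Of 22 adrenergic and muscarinic genes tested, 7 fell, 2 rose and 13 were not called (median 0.07), and the falls numbered 4 without Sham 1.

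**Figure D3:**
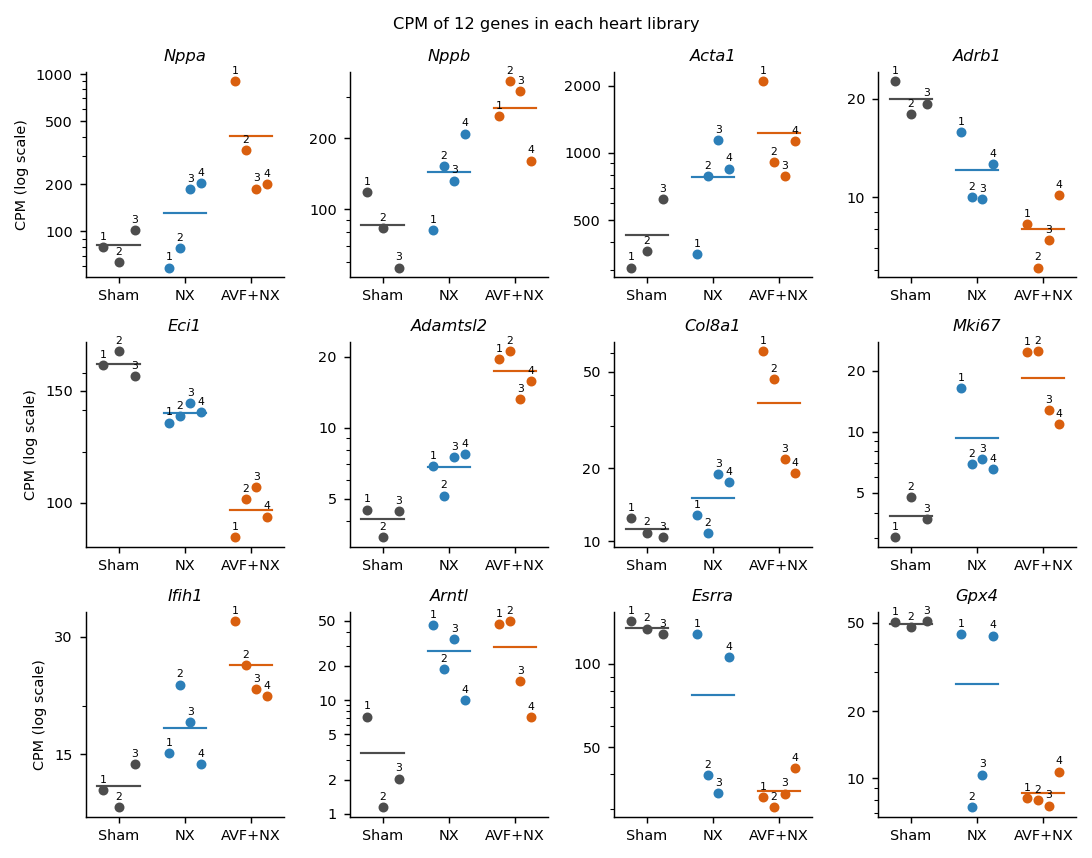
CPM (log axis) of 12 genes in each heart library, numbered by replicate, with group means as lines. In Eci1 and Adamtsl2 all 4 NX hearts lie between the AVF+NX and Sham hearts, whereas in Esrra and Gpx4 NX hearts 2 and 3 sit at the AVF+NX level and NX hearts 1 and 4 near Sham.

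Genes of fatty acid oxidation, the main fuel pathway of the adult heart, fell in AVF+NX hearts, and 6 of them were called after index adjustment too. Of 30 genes tested, 11 fell and 2 rose (median -0.17, index-adjusted median -0.39), and 6 were called lower with the index as a covariate. Etfb (ENSRNOG00000017851), a subunit of the flavoprotein that takes electrons from the acyl-CoA dehydrogenases, was at 122, 121, 124 and 137 CPM against 297, 281 and 287 CPM. This 2.29-fold fall (log2 -1.20, SE 0.13, adjusted p = 0.00072) was -0.79 after adjustment (adjusted p = 0.0164). Acadm, the medium-chain acyl-CoA dehydrogenase, was at 522, 524, 485 and 555 CPM against 736, 897 and 782 CPM (log2 -0.63, SE 0.09, adjusted p = 0.00174). Its NX hearts were at 769, 716, 714 and 686 CPM, near Sham, and the adjusted value was -0.59. Acadvl, the very-long-chain dehydrogenase of the inner membrane, was at 364, 344, 348 and 355 CPM against 545, 575 and 562 CPM (log2 -0.67, index-adjusted -0.49). In these 3 genes the AVF+NX hearts lay close together and below every Sham heart. Mlycd, which removes the malonyl-CoA that blocks fatty acid entry, went from 157–181 CPM to 91.2–109 CPM (log2 -0.77, index-adjusted -0.73). Decr1, an auxiliary enzyme for unsaturated fatty acids, had values of -0.40 and -0.64, and its call ended without Sham 2 (adjusted p = 0.0543) or with the length trend removed (adjusted p = 0.0838).

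Uptake and entry genes were split. Fabp3, the fatty acid carrier of the cardiomyocyte cytosol, was at 1535, 1563, 2214 and 1946 CPM against 2807, 2745 and 2393 CPM (log2 -0.55, index-adjusted -0.57), and its call ended with the length trend removed (adjusted p = 0.0585) or with the length and promoter GC trends removed (adjusted p = 0.0828). The transporter Slc27a1 fell (log2 -0.89), as did the short-chain dehydrogenase Acads (log2 -0.58). Cpt1b, the gate for long-chain fatty acids at the mitochondrial surface, did not pass, at 634–714 CPM against 573–644 CPM (log2 0.14, adjusted p = 0.256). Among regulators, Esrra (ENSRNOG00000021139), the nuclear receptor that drives genes of mitochondrial energy metabolism, was at 33.2, 30.4, 34.1 and 42.1 CPM against 143, 134 and 128 CPM. Its fall was the largest of the list (log2 -1.96, SE 0.40, adjusted p = 0.00639), but NX hearts 2 and 3 were at 39.9 and 34.3 CPM and NX hearts 1 and 4 at 128 and 106 CPM, and the index-adjusted value was -0.72. Its relative Esrrb, the fatty acid sensor Ppard and the mitochondrial deacetylase Sirt3 fell too (log2 -0.84, -0.84 and -0.53). The coactivator Ppargc1a rose from 73.99–79.5 CPM to 88.3–110.2 CPM (log2 0.38), and its call ended without Sham 1 or 3 (adjusted p = 0.0544 to 0.0656). Ppara did not pass (log2 0.11, adjusted p = 0.484). Of 21 regulators tested 7 fell and 3 rose.

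Among respiratory chain genes coded in the nucleus more fell than rose, and those on the mitochondrial chromosome were split. Of 32 nuclear genes tested, 12 fell, 4 rose and 16 were not called (median -0.14), and 10 of the falls kept their call when each of the 7 libraries was left out in turn. Cyc1, cytochrome c1 of complex III, was at 325, 299, 302 and 357 CPM against 693, 700.2 and 686 CPM (log2 -1.11, SE 0.22, adjusted p = 0.00445), with NX hearts at 655, 347, 322 and 646 CPM and an index-adjusted value of -0.39. Ndufb8 and Ndufv1 of complex I had log2 fold changes of -0.82 and -0.84 and index-adjusted values of -0.55 and -0.32. Cox4i1, Cox5a and the muscle forms Cox6a2 and Cox8b, all of cytochrome oxidase, were at -0.55, -0.66, -1.17 and -1.05. None of the 12 was called after index adjustment. Mt-co1, the core of cytochrome oxidase and the most abundant messenger, was at 96446, 106440, 100680 and 115070 CPM against 73160, 79161 and 79389 CPM (log2 0.44, adjusted p = 0.00445). Mt-nd4l also rose (log2 0.63), and Mt-nd6, the messenger read from the other strand, fell (log2 -0.86). The other 10 of 13 mitochondrial messengers were not called, among them the one with the largest fall of the list (log2 -1.76). Overlapping mitochondrial genes share reads, so single values there are uncertain.

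Pyruvate, sugar and amino acid genes changed in both directions. Mpc2, a subunit of the carrier that brings pyruvate into the mitochondrion, went from 131–150.3 CPM to 65–78.7 CPM (log2 -0.92), while Pdha1, the pyruvate dehydrogenase subunit after it, went from 776–809.5 CPM to 1072–1116 CPM (log2 0.46). NX hearts 2 and 3 were at the AVF+NX level for both, and the index-adjusted values were -0.18 and 0.10. Suclg1 and Fh of the citric acid cycle fell (log2 -0.56 and -0.52). In this group 7 of 25 genes fell (28%) and 5 rose (20%), where 18.6% and 15.4% of all genes tested did. Slc2a4, the insulin-regulated glucose transporter of muscle, was at 202, 206, 192 and 238 CPM against 328, 385 and 361 CPM (log2 -0.77, index-adjusted -0.16), and Slc2a1, the basal transporter, did not pass (log2 -0.22). In glycolysis Pfkm, the muscle phosphofructokinase (log2 -0.39), Pfkl (log2 -0.63) and Aldoa (log2 -0.43) fell, among 8 falls and 2 rises in 28 genes. Bckdha, which commits branched chain amino acids to breakdown, was at 108, 129.8, 131 and 179.7 CPM against 264, 275 and 259 CPM (log2 -0.96, index-adjusted -0.54), and 6 of 20 genes of that group fell and 3 rose. These counts depend on single libraries: the falls numbered 3 without AVF+NX 1, 3 without Sham 2 and 3 without Sham 3 in the citric acid cycle group and 4 without AVF+NX 3, 5 without Sham 1 and 4 without Sham 2 in glycolysis. In the branched chain group they numbered 3 without AVF+NX 1, 3 without Sham 1, 2 without Sham 2 and 3 without Sham 3.

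Ribosomal protein genes fell together. Of 31 cytoplasmic ribosomal protein genes tested, 23 fell and 0 rose by edgeR (0 at an unadjusted p below 0.05, 0 by DESeq2 and 0 by limma voom). The median was -0.42. With the index as a covariate 0 of the 31 were called by edgeR (median -0.34), with 20 lower and 0 higher at an unadjusted p below 0.05. Rps16, a protein of the small subunit, was at 112, 92.5, 99.1 and 120 CPM against 304, 244 and 229.8 CPM (log2 -1.29, SE 0.18, adjusted p = 0.00171, index-adjusted -0.83). Rps23 and Rpl18 followed with log2 fold changes of -1.07 and -0.68, and Rps14 and Rps2 with -1.33 and -1.09. Rps21, outside the list and among the largest falls of all genes, went from 56.6, 44.9 and 50.99 CPM to 13.6, 11.4, 11.3 and 14.4 CPM (log2 -2.02), with NX hearts at 41.8, 15.1, 12.3 and 44.9 CPM. Ribosomal protein genes have many near-identical pseudogenes, and their counts are uncertain where reads can be shared. Of 26 mitochondrial ribosome and translation genes 12 fell and 0 rose by edgeR (3 at an unadjusted p below 0.05, 0 by DESeq2 and 3 by limma voom). The falls numbered 7 without AVF+NX 2, 5 without Sham 1 and 7 without Sham 2. With the index as a covariate 0 of the 26 were called by edgeR (median -0.13), with 4 lower and 0 higher at an unadjusted p below 0.05. Mrpl20 was at 10.4, 9.37, 10.3 and 10.5 CPM against 36.6, 33.9 and 29.1 CPM (log2 -1.71, index-adjusted -0.58). Mrps25, Mrpl2 and the elongation factor Tsfm had log2 fold changes of -1.004, -0.84 and -0.86. Dkc1, the pseudouridine synthase of ribosomal RNA, fell as well (log2 -1.08).

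These are short messengers, and calls followed length over the whole table. In the shortest eighth of genes tested (53 to 1102 bases) 9.43% were called higher and 33.3% lower, and in the longest (4931 to 29464 bases) 26.6% higher and 8.88% lower. Cytoplasmic ribosomal protein genes had a median length of 765 bases, against 2409 over all genes tested. With the length trend of each library removed, 4181 genes (32.7%) were called, 1952 higher (15.3%) and 2229 lower (17.4%). Of the 31 ribosomal protein genes 11 were then lower and 1 higher (median -0.17). Without Sham heart 1, and with lengths as they are, the 23 falls were 13. With the trend removed, nuclear respiratory chain genes, with a median length of 1075 bases, had 11 falls and 8 rises, and mitochondrial ribosome genes 8 falls and 2 rises. Removing the trend with promoter GC content as well, an alternative added after seeing the data, keeps only genes with a RefSeq promoter. The nuclear respiratory chain list then had 10 rises and 8 falls among 28 genes and its median turned to 0.02. The channel and gap junction list had 1 rise and 2 falls among 15 genes (median 0.0044), and the branched chain amino acid list 3 rises and 2 falls among 18 (median 0.02). Cytoplasmic ribosomal proteins had 9 falls among 23 genes (median -0.20), glycolysis 3 rises and 3 falls among 23 (median -0.18), and fibrillar collagens and interstitial matrix 5 rises among 15 (median 0.53).

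**Figure D4:**
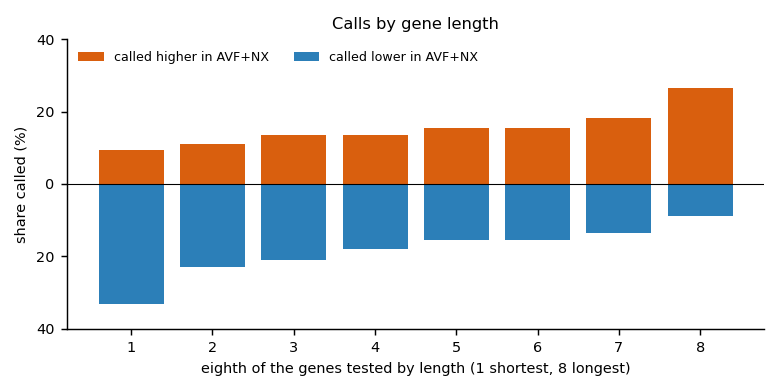
Share of genes called higher (upward bars) and lower (downward bars) in AVF+NX hearts, in eighths of the genes tested ordered by length, 1 the shortest. From the shortest to the longest eighth the share called lower goes from 33.3% to 8.88% and the share called higher from 9.43% to 26.6%.

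Extracellular matrix genes formed one of the groups with most rises. Of 29 fibrillar collagen and interstitial matrix genes listed 25 were matched by symbol and 23 passed the filter on low counts, and of these 13 rose and 0 fell by edgeR (0 at an unadjusted p below 0.05, 0 by DESeq2 and 0 by limma voom). The median was 0.77 and the index-adjusted median 0.75. The rises numbered 8 without AVF+NX 2, 7 without Sham 2 and 8 without Sham 3. Col1a1 (ENSRNOG00000003897) and Col3a1 (ENSRNOG00000003357), the chains of the collagens that stiffen scar, had smaller fold changes than several minor components, a difference that was not tested. Col1a1 was at 678, 616, 449.5 and 429 CPM against 378, 301 and 279 CPM (log2 0.77, adjusted p = 0.0208), and its call ended without AVF+NX 2 or Sham 2 or 3 (adjusted p = 0.0525 to 0.0743) or with the replicate number as a block (adjusted p = 0.0526). Col3a1 was at 1729, 1255, 1013 and 921 CPM against 841, 536 and 567 CPM (log2 0.92), and its call ended without Sham 2 or 3 (adjusted p = 0.0723 to 0.0762) or with no count filter (adjusted p = 0.0563). Both were highest in AVF+NX hearts 1 and 2.

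Among the minor components, Col8a1, a short-chain network collagen of vessel walls, was at 60.9, 46.8, 21.9 and 19.1 CPM against 12.5, 10.9 and 10.4 CPM (log2 1.73, SE 0.40, adjusted p = 0.00907). AVF+NX hearts 1 and 2 were far above hearts 3 and 4, yet all 4 were above every Sham heart, and the index-adjusted value was 2.18. Cilp, a matrix protein of cardiac fibroblasts known to oppose TGF-beta, was at 18.1, 14.99, 8.28 and 7.84 CPM against 4.07, 3.93 and 3.28 CPM (log2 1.72), and it was called after adjustment too (log2 2.56, adjusted p = 0.0164). Its order among the AVF+NX hearts was that of Col8a1. Sparc, which helps to assemble collagen fibrils, was at 1570.3, 1664, 1515 and 1461 CPM against 1143, 1180.2 and 1134 CPM (log2 0.43, index-adjusted 0.59, adjusted p = 0.0289). Tenascin C (Tnc), a protein of remodelling matrix, rose from 0.355–0.896 CPM to 1.52–3.88 CPM (log2 2.32). Fibronectin (Fn1) was at 172, 157, 93.9 and 99.1 CPM against 60.6, 62.1 and 62.5 CPM (log2 1.08, index-adjusted 1.34), and versican (Vcan) and Col12a1 were at 1.30 and 0.86. Tnc and Fn1 did not overlap between the groups. Postn, a product of activated fibroblasts, did not pass, at 30.3, 22.1, 9.796 and 7.93 CPM against 8.96, 4.66 and 4.700 CPM with overlap (adjusted p = 0.124).

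Elastic fibre, basement membrane and crosslinking genes rose as well. Adamtsl2 (ENSRNOG00000027742, chromosome 3, bases 5624506 to 5654910, plus strand), a protein that binds fibrillin microfibrils and the TGF-beta store on them, was at 19.5, 21.1, 13.2 and 15.8 CPM in AVF+NX hearts and 4.48, 3.42 and 4.43 CPM in Sham hearts. All 4 NX hearts lay between the groups, above every Sham heart but nearer to Sham, at 6.87, 5.14, 7.47 and 7.696 CPM. The 4.22-fold rise (log2 2.08, SE 0.21, adjusted p = 0.000526) was 2.42 on the log2 scale after index adjustment (adjusted p = 0.00466). Fbn1, fibrillin itself, had a log2 fold change of 1.31, and Mfap5, a microfibril protein, went from 11.7–14.4 CPM to 27.4–40.2 CPM (log2 1.42). The small proteoglycans lumican (Lum), biglycan (Bgn), decorin (Dcn) and Prelp were at 1.12, 0.82, 0.67 and 0.44. The exception was Emilin1, an elastic fibre protein that restrains TGF-beta processing, at 23.9, 22.5, 15.5 and 17.3 CPM against 55.7, 40.7 and 48.3 CPM (log2 -1.28, index-adjusted -0.43). Of 23 genes of elastic fibres and proteoglycans tested, 10 rose and 1 fell (median 0.50, index-adjusted 0.46).

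In the basement membrane, 7 of 17 genes rose and 1 fell. Nid1, which links laminin to collagen IV, was at 432, 420.4, 334 and 316 CPM against 210.3, 213 and 206 CPM (log2 0.84, SE 0.12, adjusted p = 0.00183), and was called after adjustment (log2 0.95, adjusted p = 0.031). Nid2 and the laminin chains Lama2, Lama4 and Lamc1 were at 1.02, 0.72, 0.68 and 0.63. Col4a1, the main collagen of that layer, did not pass (log2 0.24, adjusted p = 0.291). Of 18 processing and crosslinking genes 6 rose and 0 fell by edgeR (0 at an unadjusted p below 0.05, 0 by DESeq2 and 1 by limma voom). Lox, which crosslinks collagen and elastin, was at 19.1, 29.4, 21.96 and 15.7 CPM against 8.47, 10.04 and 8.25 CPM (log2 1.29, SE 0.20, adjusted p = 0.00205, index-adjusted 1.17). P4ha1, a collagen prolyl hydroxylase, was at 80.9, 81.8, 80.2 and 56.95 CPM against 35.9, 34.6 and 31.6 CPM (log2 1.14), and the lysyl hydroxylase Plod2 was at 0.88. Among proteases and their inhibitors Timp3 and Plat, the tissue plasminogen activator, rose (log2 0.48 and 0.74), while Mmp2 and Timp1 did not pass (log2 0.36 and 0.30, adjusted p = 0.0515 and 0.182). Of 21 metalloproteinase and inhibitor genes tested 5 rose (23.8%) and 2 fell (9.52%), where 15.4% and 18.6% of all genes tested did. The rises numbered 3 without AVF+NX 2, 8 without AVF+NX 4, 3 without Sham 2 and 2 without Sham 3.

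Growth factor and hormone genes around the matrix moved in part. Igf1, a growth factor for muscle and fibroblasts, was at 39.7, 32.4, 35.7 and 30.3 CPM against 17.8, 14.4 and 18.4 CPM (log2 1.03, SE 0.17, adjusted p = 0.00217, index-adjusted 0.71). The groups did not overlap. Mest, an imprinted gene, was at 3.88, 2.91, 3.95 and 2.67 CPM against 1.06, 0.621 and 0.709 CPM (log2 2.06, index-adjusted 1.76), and Grb10, an imprinted brake on insulin and IGF receptors, at log2 0.58. Of 16 genes of the insulin-like growth factor system 4 rose and 0 fell by edgeR (0 at an unadjusted p below 0.05, 0 by DESeq2 and 1 by limma voom). TGF-beta genes were mixed: Tgfb3 rose (log2 0.59), and its call ended without Sham 2 (adjusted p = 0.0576), while Tgfb1 did not pass (log2 -0.21, adjusted p = 0.269, index-adjusted 0.24). Fstl1, a secreted protein that blocks BMP ligands, was at 180, 139, 127 and 107 CPM against 74.6, 70.4 and 68.9 CPM (log2 0.96, SE 0.16, adjusted p = 0.00221), and the receptor Bmpr2 was at log2 0.41. Of 29 genes of this pathway 7 rose and 1 fell, and the rises numbered 4 without Sham 2. In the renin-angiotensin-aldosterone list 5 of 14 genes rose and 0 fell by edgeR (1 at an unadjusted p below 0.05, 0 by DESeq2 and 3 by limma voom). The median was 0.37, and the rises numbered 3 without AVF+NX 2, 3 without AVF+NX 3, 3 without Sham 1 and 2 without Sham 3. Ace, which makes angiotensin II, was at 25.8, 17.9, 14.3 and 19.8 CPM against 10.3, 18.5 and 9.84 CPM with overlap and did not pass (adjusted p = 0.0856). Fkbp5, a target of corticosteroid receptors, was among the rises (log2 0.76).

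Markers of several cell types moved with these groups. Fibroblast markers (17 of 18 matched, all tested) summed to 3512–4159 CPM in AVF+NX hearts and 2899.7–3094 CPM in Sham hearts (exact permutation p = 0.0286, the smallest possible). Of these 9 rose and 0 fell by edgeR (1 at an unadjusted p below 0.05, 0 by DESeq2 and 1 by limma voom), and the rises numbered 5 without Sham 3. Islr, a secreted protein of mesenchymal cells, was at 48.3, 48.7, 36.99 and 34.05 CPM against 12.7, 15.8 and 16.3 CPM (log2 1.497, SE 0.20, adjusted p = 0.00167, index-adjusted 1.33). Medag was at 41.6, 33.9, 23.8 and 20.4 CPM against 12.4, 8.59 and 7.18 CPM (log2 1.67), and the collagen receptor Ddr2 at log2 0.67. The list shares Col1a1, Dcn, Lum, Postn and Fap with the matrix lists. The part of fibroblast number in the matrix results was not tested.

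Endothelial markers (24 of 25 matched) summed to 2338–2688 CPM against 1753–1964 CPM (exact permutation p = 0.0286), and 7 rose, 2 fell and 15 were not called (median 0.07). The 7 rises kept their call when each of the 7 libraries was left out in turn. Emcn, a surface sialoprotein of capillary and venous endothelium, was at 53.1, 51.4, 56.7 and 54.1 CPM against 29.01, 24.02 and 31.9 CPM (log2 0.92, SE 0.12, adjusted p = 0.00113), and was called after adjustment (log2 0.78, adjusted p = 0.0478). Every AVF+NX heart was above every Sham heart. Cav1, the main protein of caveolae, was at 451, 514, 483 and 499 CPM against 294, 265 and 279.7 CPM (log2 0.80, index-adjusted 0.50). The junction protein Cdh5, the VEGF receptor Kdr, the angiopoietin receptor Tek and the phosphatase Ptprb were at 0.55, 0.70, 0.55 and 0.74. The falls were in Sox17, an arterial transcription factor (log2 -0.80, index-adjusted -0.02), and Nos3, the endothelial nitric oxide synthase (log2 -0.43, index-adjusted -0.06). For Sox17, its call ended without AVF+NX 2 or 3 or Sham 2 or 3 (adjusted p = 0.072 to 0.127). For Nos3, its call ended without AVF+NX 1, 3 or 4 or Sham 1, 2 or 3 (adjusted p = 0.0528 to 0.117), with the replicate number as a block (adjusted p = 0.0795) or with thinned counts (adjusted p = 0.0554). Vegfa, the ligand of Kdr, did not pass (log2 0.20, adjusted p = 0.169).

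Macrophage markers (20 of 23 matched) summed to 500.3–631 CPM against 348–381 CPM (exact permutation p = 0.0286), with 8 rises and 1 fall. Lyz2, the lysozyme of myeloid cells, was at 163, 128, 145 and 125 CPM against 48.6, 52.7 and 57.1 CPM (log2 1.41, SE 0.19, adjusted p = 0.00174), with an index-adjusted value of 1.42. Genes of resident cardiac macrophages rose: the mannose receptor Mrc1 (log2 0.71, index-adjusted 0.87, adjusted p = 0.0491), the haemoglobin receptor Cd163 (log2 0.53), Lyve1, also a lymphatic marker (log2 0.86), Folr2 (log2 0.79) and F13a1 (log2 0.64). For Cd163, its call ended with the length and promoter GC trends removed (adjusted p = 0.0916). C1qa, the complement chain of the same cells, went the other way, at 12.2, 8.91, 7.84 and 12.1 CPM against 29.3, 25.2 and 29.4 CPM (log2 -1.47). NX hearts 1 to 4 were at 22.7, 5.96, 7.69 and 29.5 CPM, and the index-adjusted value was 0.07. For C1qa, its call ended without AVF+NX 1, 2 or 3 or Sham 1, 2 or 3 (adjusted p = 0.0568 to 0.0867) or with no count filter (adjusted p = 0.0915). The pan-leukocyte phosphatase Ptprc rose from 11.7–12.1 CPM to 18.2–26.5 CPM (log2 0.85), and its call ended with the length and promoter GC trends removed (adjusted p = 0.0664). Cd48, an adhesion ligand of leukocytes, was at 89.3, 96.3, 103 and 89.8 CPM against 43.9, 41.6 and 43.1 CPM (log2 1.14, SE 0.14, adjusted p = 0.00112), and called after adjustment (log2 0.72, adjusted p = 0.0164).

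Sums of the other marker lists went both ways. T and NK cell markers (15 of 17 matched) summed to 59.4–78.5 CPM against 40.99–49.3 CPM, and nerve and Schwann cell markers (10 of 13) to 73.97–84.5 CPM against 57.5–64.3 CPM. B and plasma cell markers (10 of 12) summed to 369–421 CPM against 431–454 CPM (exact permutation p = 0.0286 for each of these sums). Few single members were called by edgeR. Of 13 T and NK cell genes tested 3 rose, and of 8 nerve and Schwann cell genes 1 rose (median -0.10). Only 3 B and plasma cell genes were tested and none was called. The B and plasma cell sum was 421, 334, 307 and 481 CPM in NX hearts 1 to 4. Smooth muscle and pericyte markers (16 of 16) were at 3595–3887 CPM against 3524–3724 CPM (p = 0.2, exact permutation test). Ventricular cardiomyocyte markers (11 of 11) were at 60232–69647 CPM against 65724–80554 CPM (exact permutation p = 0.143). Among them the ventricular transcription factor Irx4 fell (log2 -0.38), and its call ended without AVF+NX 1 or 2 or Sham 1, 2 or 3 (adjusted p = 0.0648 to 0.0954) or with no count filter (adjusted p = 0.0523). Atrial markers (12 of 14) summed to 2499–3476 CPM against 1866–1935 CPM. That sum holds Nppa and Pam, the enzyme that amidates peptide hormones, at 2229, 2259, 2127 and 1898 CPM against 1394, 1426 and 1416 CPM (log2 0.59). Lymphatic endothelium (226–323 CPM against 209–258 CPM), neutrophils and mast cells (30.9–43.4 CPM against 21.6–28.7 CPM) and epicardium (23.8–31.99 CPM against 18.6–21.5 CPM) had sums with higher means in AVF+NX hearts (exact permutation p = 0.229, 0.0571 and 0.0571). Erythrocyte, adipocyte and skeletal muscle sums overlapped between the groups (exact permutation p = 0.114, 0.629 and 0.8286), and the skeletal muscle sum did not exceed 2.08 CPM in any of the 7 libraries.

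Interferon-stimulated genes, switched on by type I and type II interferon through motifs in their promoters, rose in AVF+NX hearts. Of 46 listed 45 were matched and 43 tested, and 23 rose and 1 fell (median 0.81, index-adjusted median 0.57), and 28 had AVF+NX values above all Sham values, where 22.8% of all genes tested did. The rises numbered 13 without Sham 1, 12 without Sham 2 and 14 without Sham 3, and 0 members were called with the index as a covariate by edgeR, with 13 at an unadjusted p below 0.05, all higher. The interferon-stimulated response element, searched as GAAANNGAA followed by a further A on both strands of the 250 bases before the gene start, was found in 19 of 31 members with a promoter sequence and in 2.70% of 8786 promoters of genes tested. Among the 17 members that rose and had a sequence, 10 held it (58.8%), near the share of all 31 members (61.3%). These promoters had a median GC content of 52%, against 60.4% over all. Without the further A, 20 of 31 and 6.36% held it. A match is a description of the letters and not a shown binding site. The 4 promoters printed here belong to members whose values follow, as RefSeq gives them for build GRCr8 and 5′ to 3′ on the gene's strand, with the match in capitals. In Gbp2, Oasl2 and Rsad2 the match is on the opposite strand and is shown as its reverse complement.
Ifih1, chr3:67683969-67684218, minus strand: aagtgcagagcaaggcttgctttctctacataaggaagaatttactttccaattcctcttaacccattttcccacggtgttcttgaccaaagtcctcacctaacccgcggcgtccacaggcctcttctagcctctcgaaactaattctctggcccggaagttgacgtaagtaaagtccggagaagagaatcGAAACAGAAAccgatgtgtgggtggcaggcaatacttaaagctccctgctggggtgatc
Gbp2, chr2:234005477-234005726, plus strand: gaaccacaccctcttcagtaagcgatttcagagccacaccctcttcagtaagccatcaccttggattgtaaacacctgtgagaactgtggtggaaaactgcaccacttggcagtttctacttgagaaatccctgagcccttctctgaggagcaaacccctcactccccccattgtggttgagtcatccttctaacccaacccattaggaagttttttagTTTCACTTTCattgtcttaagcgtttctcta
Oasl2, chr12:47383186-47383435, minus strand: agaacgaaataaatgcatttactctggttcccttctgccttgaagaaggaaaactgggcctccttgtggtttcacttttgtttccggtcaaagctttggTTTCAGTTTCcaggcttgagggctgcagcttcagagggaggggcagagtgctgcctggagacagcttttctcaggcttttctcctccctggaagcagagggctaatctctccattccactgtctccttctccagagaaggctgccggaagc
Rsad2, chr6:48788121-48788370, minus strand: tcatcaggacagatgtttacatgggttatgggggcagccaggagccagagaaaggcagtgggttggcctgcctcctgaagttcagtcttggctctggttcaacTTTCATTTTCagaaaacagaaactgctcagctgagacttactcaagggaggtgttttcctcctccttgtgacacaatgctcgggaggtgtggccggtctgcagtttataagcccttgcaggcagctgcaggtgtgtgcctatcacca

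Ifih1, the cytosolic sensor of double-stranded RNA, was at 32.9, 25.5, 22.1 and 21.2 CPM in AVF+NX hearts and 12.1, 10.97 and 14.2 CPM in Sham hearts (log2 1.03, SE 0.19, adjusted p = 0.00294, index-adjusted 0.78). Gbp2, a GTPase against intracellular microbes, was at 38.8, 25, 23.7 and 27.8 CPM against 13.7, 12.8 and 16.3 CPM (log2 1.01), Oasl2, of the oligoadenylate synthetase family, at 17.7, 9.84, 9.99 and 9.27 CPM against 4.97, 3.21 and 3.55 CPM (log2 1.57), and the antiviral enzyme Rsad2 at 22.4, 19.4, 10.8 and 12.4 CPM against 8.47, 8.799 and 7.63 CPM (log2 0.98). In these 4 genes AVF+NX heart 1 was the highest of the 11 libraries, and no AVF+NX value fell to a Sham value. The NX hearts ranged between the groups and into the AVF+NX values, with Ifih1 at 15.1, 22.6, 18.2 and 14.1 CPM. Irf7, the factor that amplifies interferon production, showed the pattern most sharply at 70.3, 33, 19.8 and 26.8 CPM against 15.7, 14.1 and 11.8 CPM (log2 1.44), its log2 fold change was 0.95 without AVF+NX 1, and its call ended without Sham 1, 2 or 3 (adjusted p = 0.0563 to 0.0788), with no count filter (adjusted p = 0.0627) or with a fit of the 7 libraries alone (adjusted p = 0.0655). AVF+NX heart 1 also had the highest macrophage sum, at 630.9 CPM, and its part in the interferon values was not tested. Sp100, a nuclear body protein, was even across AVF+NX hearts at 16.4, 13.2, 14.7 and 16.2 CPM against 6.03, 8.59 and 5.85 CPM (log2 1.15, SE 0.17, adjusted p = 0.00183), and Oasl had a log2 fold change of 1.75. The single fall was in Psmb8, an immunoproteasome subunit below 6 CPM in every library (log2 -1.07), and its call ended without AVF+NX 1, 2 or 3, NX 1 or Sham 1, 2 or 3 (adjusted p = 0.052 to 0.225), with the length trend removed (adjusted p = 0.0552), with thinned counts (adjusted p = 0.11) or with the length and promoter GC trends removed (adjusted p = 0.0573).

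**Figure D5:**
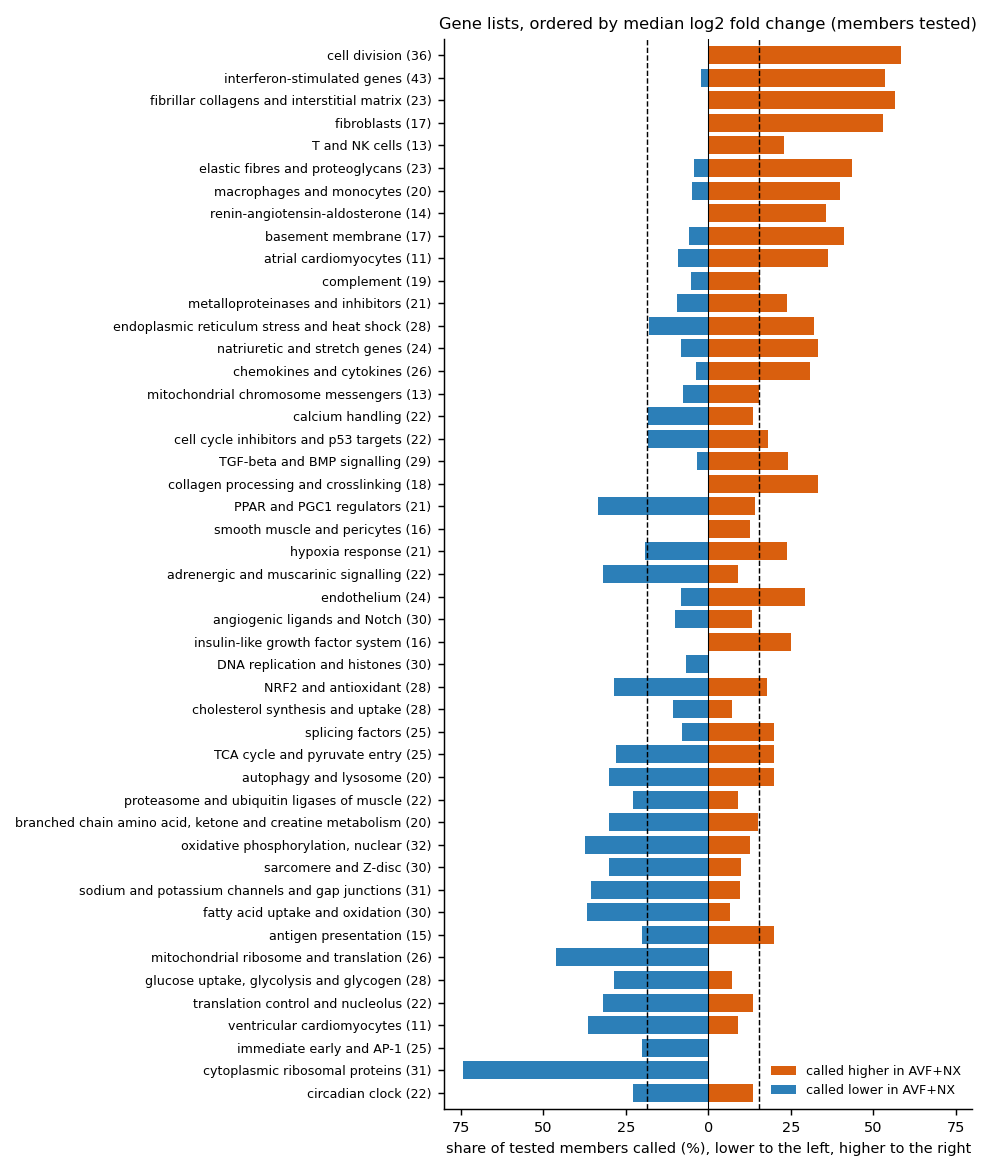
Share of tested members of each gene list called higher (bars to the right) and lower (bars to the left) in AVF+NX hearts, for lists with at least 10 members tested, ordered by median log2 fold change. Dashed lines mark the shares over all genes tested, 15.4% higher and 18.6% lower.

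Antigen presentation genes went both ways. RT1-Da, a class II chain, was at 73.2, 55.7, 69.98 and 66.8 CPM against 38.1, 33.95 and 31.9 CPM (log2 0.94, SE 0.14, adjusted p = 0.00183), and B2m, the light chain of class I, at 812, 629, 733 and 811 CPM against 468, 444 and 422 CPM (log2 0.75). The groups did not overlap in either. RT1-A1, a class I heavy chain, fell from 88.2, 77.02 and 72.8 CPM to 37.3, 26.1, 19.3 and 19.4 CPM (log2 -1.63), with NX hearts at 67.9, 26.8, 28.2 and 82.6 CPM, and its index-adjusted value was -0.38. RT1 genes are near-identical copies, and reads among them may be misassigned. Tapbp, the chaperone that loads class I, also fell (log2 -0.90, index-adjusted -0.38). Of 15 genes tested 3 rose and 3 fell (20% each), near the shares over all genes tested (15.4% and 18.6%). Of 19 complement genes 3 rose (15.8%, against 15.4% of all genes tested) and 1 fell. Among the rises were the protective regulators Cd55 and Serping1. Cd55 was at 14.4, 12.99, 14.6 and 11.5 CPM against 3.91, 5.38 and 5.76 CPM (log2 1.42, SE 0.22, adjusted p = 0.00183) and Serping1 at 131, 119, 129 and 119.9 CPM against 82.5, 74.4 and 83.1 CPM (log2 0.64). The anaphylatoxin receptor C3ar1 rose too (log2 1.05), and its call ended without Sham 1 or 2 (adjusted p = 0.051 to 0.0883). Of 26 chemokine and cytokine genes 8 rose and 1 fell, and the rises numbered 5 without AVF+NX 2, 3 without Sham 1, 5 without Sham 2 and 5 without Sham 3. The scavenger chemokine Cxcl16 (log2 0.93), the oncostatin M receptor Osmr (log2 0.92) and the monocyte attractant Ccl2 (log2 1.23) were among them. For Ccl2, its call ended without AVF+NX 2 or Sham 1 or 3 (adjusted p = 0.0527 to 0.077).

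Genes of mitosis had the highest median fold change of the lists with at least 10 members tested, while no gene of DNA replication was called higher. Of 42 cell division genes listed 41 were matched and 36 tested, and 21 rose and 0 fell by edgeR (0 at an unadjusted p below 0.05, 0 by DESeq2 and 0 by limma voom). The median was 1.38, and the rises numbered 13 without Sham 1. Without AVF+NX 1 they numbered 17 (median 1.18) and without AVF+NX 2 they numbered 16 (median 1.325). In each of these AVF+NX fits 33 members passed the count filter, so some of the 36 were tested only through AVF+NX hearts. The median and the count of rises rest in part on such members. With the index as a covariate the median was 2.00 and 8 were called higher. Mitotic genes are often repressed outside division through a cell cycle homology region. Its core, TTTGAA, searched on both strands of the 250 bases before the start, was found in 17 of 31 cell division promoters, in 2 of 22 DNA replication and histone promoters and in 10.03% of 8786 promoters of genes tested. The CCAAT box, searched as CCAAT on both strands, was in 22 of 31 cell division promoters, in 13 of 22 DNA replication and histone promoters and in 35.2% of all. The 3 promoters printed here belong to genes described next, from RefSeq for build GRCr8 and 5′ to 3′ on the gene's strand, with TTTGAA or its reverse complement TTCAAA in capitals.
Mki67, chr1:199952594-199952843, minus strand: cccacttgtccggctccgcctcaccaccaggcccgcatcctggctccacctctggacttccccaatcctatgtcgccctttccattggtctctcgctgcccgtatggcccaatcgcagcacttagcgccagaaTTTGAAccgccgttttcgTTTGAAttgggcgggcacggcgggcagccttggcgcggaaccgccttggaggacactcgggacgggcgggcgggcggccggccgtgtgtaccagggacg
Top2a, chr10:84473094-84473343, minus strand: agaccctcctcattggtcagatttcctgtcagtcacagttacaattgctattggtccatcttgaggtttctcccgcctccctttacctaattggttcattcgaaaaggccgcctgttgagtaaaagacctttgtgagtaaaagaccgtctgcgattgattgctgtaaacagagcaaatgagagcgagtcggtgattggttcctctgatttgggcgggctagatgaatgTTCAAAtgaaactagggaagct
Smc4, chr2:155550012-155550261, plus strand: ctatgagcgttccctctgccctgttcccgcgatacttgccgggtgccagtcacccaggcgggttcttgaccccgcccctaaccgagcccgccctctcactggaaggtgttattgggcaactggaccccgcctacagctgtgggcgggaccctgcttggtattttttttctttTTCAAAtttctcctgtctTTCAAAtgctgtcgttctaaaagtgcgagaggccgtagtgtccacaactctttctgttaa

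Mki67 (ENSRNOG00000028137), a protein of the surface of mitotic chromosomes, was at 24.7, 24.96, 12.8 and 10.9 CPM in AVF+NX hearts and 3.01, 4.76 and 3.72 CPM in Sham hearts (log2 2.28, SE 0.42, adjusted p = 0.00365). It was called after index adjustment (log2 3.11, adjusted p = 0.0321). NX heart 1 reached 16.5 CPM and the other NX hearts 6.54 to 7.36 CPM. Top2a, the topoisomerase that untangles chromosomes, was at 10.1, 9.35, 3.82 and 2.85 CPM against 1.63, 1.55 and 2.22 CPM (log2 1.88), and its call ended without AVF+NX 2 or Sham 1, 2 or 3 (adjusted p = 0.0521 to 0.077) or with no count filter (adjusted p = 0.0586). Smc4, a core subunit of condensin, was at 37.7, 38.1, 33.7 and 30.8 CPM against 23.9, 20.6 and 24.6 CPM (log2 0.61, SE 0.11, adjusted p = 0.00251). Kinetochore and spindle genes at low levels followed: Cenpf was at 7.19, 6.297, 3.95 and 2.94 CPM against 0.733, 0.621 and 1.06 CPM (log2 2.67), Kif11 at 3.17, 4.002, 2.196 and 1.43 CPM against 0.733, 0.414 and 0.355 CPM (log2 2.43) and Nusap1 at 7.05, 7.603, 6.19 and 5.97 CPM against 3.83, 3.002 and 2.84 CPM (log2 1.06). The kinase Cdk1, the spindle gene Aspm, the kinesin Kif23 and the cleavage furrow protein Anln were at 2.33, 2.60, 2.04 and 2.29. In most of these genes AVF+NX hearts 1 and 2 were above hearts 3 and 4, the order also seen in Col8a1 and Col3a1. These are messenger levels of whole tissue and do not show which cells held them, and the part of the higher macrophage, fibroblast and endothelial sums in these values was not tested.

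Of 30 replication and histone genes tested, 0 rose by edgeR (2 at an unadjusted p below 0.05, 0 by DESeq2 and 1 by limma voom) and 2 fell (median 0.03). With the index as a covariate 0 were called by edgeR (median 0.14), with 6 higher and 0 lower at an unadjusted p below 0.05. The 2 falls of the main fit were in H2afz, a histone variant, at 5.99, 8.11, 7.93 and 7.75 CPM against 21.4, 21.8 and 23.5 CPM (log2 -1.58, index-adjusted -0.47), and Fen1, a nuclease of lagging strand synthesis (log2 -0.90). For Fen1, its call ended without AVF+NX 2 or 3 or Sham 1 or 3 (adjusted p = 0.0549 to 0.0867) or with thinned counts (adjusted p = 0.0721). Rrm1, which makes deoxynucleotides, did not pass (log2 0.32, adjusted p = 0.0681). Cdkn1a, the p53-induced inhibitor of the cell cycle, did not pass either, at 93.6, 94.02, 58.3 and 39.3 CPM against 56.3, 39.5 and 33.3 CPM (adjusted p = 0.153). The retinoblastoma gene Rb1 rose (log2 0.66) and the cyclin Ccnd3 fell from 134–141 CPM to 66.96–71.2 CPM (log2 -0.98, index-adjusted -0.48).

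The share of immediate early genes called lower by edgeR was near that of all genes tested. Clock genes differed among the AVF+NX hearts themselves. Of 25 immediate early and AP-1 genes 5 fell (20%, against 18.6% of all genes tested). By edgeR 0 rose (1 at an unadjusted p below 0.05, 0 by DESeq2 and 1 by limma voom). The falls numbered 3 without AVF+NX 1, 3 without AVF+NX 2, 3 without AVF+NX 4, 8 without NX 1 and 2 without Sham 1. By DESeq2 and by limma voom 9 fell. The median was -0.26 and the index-adjusted median 0.15. Klf2, a flow-responsive factor of endothelium, was at 17.9, 9.498, 18.01 and 10.5 CPM against 55.6, 63.97 and 62.5 CPM (log2 -2.10). NX hearts 1 and 4 were at 54.9 and 48.6 CPM and NX hearts 2 and 3 at 12.9 and 13.1 CPM, and the index-adjusted value was -0.56. Junb, Jund and the messenger-decay factor Zfp36 had the same layout, with log2 fold changes of -1.29, -0.88 and -1.21 and index-adjusted values of 0.02, -0.09 and -0.34. For Junb, its call ended without AVF+NX 1, 2, 3 or 4 or Sham 1, 2 or 3 (adjusted p = 0.055 to 0.0976) or with no count filter (adjusted p = 0.0833). For Jund, its call ended without Sham 1 (adjusted p = 0.0503).

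Arntl, the activator at the centre of the clock, was at 46.6, 49.5, 14.8 and 7.13 CPM in AVF+NX hearts and 7.17, 1.14 and 2.04 CPM in Sham hearts, so hearts 1 and 2 stood apart from hearts 3 and 4 and the groups overlapped (log2 3.07, SE 0.92, adjusted p = 0.0305). For Arntl, its call ended without AVF+NX 1 or 2 or Sham 2 or 3 (adjusted p = 0.0598 to 0.0963), with no count filter (adjusted p = 0.0607), with a fit of the 7 libraries alone (adjusted p = 0.0612) or with limma voom (adjusted p = 0.055). Its output Dbp ran the other way, at 8.004, 9.92, 61.8 and 73.6 CPM against 128, 152 and 152 CPM, and did not pass (adjusted p = 0.111). The repressor Nr1d1 ranged from 11.99–133 CPM within the AVF+NX group (adjusted p = 0.509), and Per1 did not pass either (adjusted p = 0.142). Clock rose from 57.1–72.2 CPM to 76.02–103 CPM (log2 0.58), and its call ended with the length trend removed (adjusted p = 0.0619). Bhlhe41, another repressor of the loop, fell from 26.1, 25.8 and 30.4 CPM to 6.77, 5.202, 15.3 and 15.3 CPM (log2 -1.39), and its call ended without Sham 3 (adjusted p = 0.0642) or with no count filter (adjusted p = 0.0641). These genes cycle over the day, and the labels give no hour of collection, so hour and operation cannot be told apart here. Of 22 clock genes 3 rose (13.6%) and 5 fell (22.7%), near the shares over all genes tested (15.4% and 18.6%). The falls numbered 3 without AVF+NX 1, 1 without AVF+NX 2, 1 without Sham 2 and 0 without Sham 3.

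Stress and quality-control genes were split between rises and falls. In the hypoxia list 5 of 21 genes rose and 4 fell: Ndrg1 and the histone demethylase Kdm3a, both targets of hypoxia-inducible factor, rose (log2 0.87 and 0.54), as did the oxygen sensor Egln3 (log2 0.90), whereas the sensor Egln2 and the mitochondrial protein Higd1a fell (log2 -0.99 and -1.72, index-adjusted -0.47 and -0.40). Gsta4, a glutathione transferase that clears lipid aldehydes, was at 16.4, 18.5, 16.7 and 17.6 CPM against 31.5, 30.7 and 28.9 CPM (log2 -0.81, SE 0.09, adjusted p = 0.00072), and called after adjustment (log2 -0.84, adjusted p = 0.0164). Sod1, the cytosolic superoxide dismutase, and Prdx5 fell (log2 -0.62 and -0.60), as did Keap1, the sensor that restrains Nfe2l2 (log2 -0.52), while Nfe2l2 itself rose (log2 0.50). Hmox1, a classic target of Nfe2l2, did not pass (log2 0.32, adjusted p = 0.383). Of 28 antioxidant genes 8 fell and 5 rose, and the falls numbered 5 without AVF+NX 1, 5 without Sham 1, 5 without Sham 2 and 5 without Sham 3. The constitutive chaperone Hspa8 was at 874, 945, 1006 and 845 CPM against 524, 508 and 543 CPM (log2 0.81, SE 0.15, adjusted p = 0.00276, index-adjusted 0.36). In the endoplasmic reticulum Pdia4 and Dnajc3 rose (log2 0.51 and 0.50), and the cytosolic co-chaperone Dnajb1 fell (log2 -0.68). Of 28 genes of the endoplasmic reticulum stress and heat shock list 9 rose and 5 fell, and the rises numbered 5 without AVF+NX 2, 5 without AVF+NX 3, 4 without Sham 1 and 4 without Sham 3. Among genes of recycling, the mitochondrial kinase Pink1 and the autophagosome protein Map1lc3a, fell (log2 -1.15 and -1.08), as did the proteasome subunit Psmd2 (log2 -0.73). The splicing factor Mbnl2, which shapes muscle isoforms, rose (log2 0.58). In further lists 6 of 20 autophagy and lysosome genes fell and 4 rose, 5 of 22 proteasome and muscle ubiquitin ligase genes fell and 2 rose, and 7 of 22 translation control genes fell and 3 rose. The falls numbered 3 without Sham 2 and 2 without Sham 3 in the autophagy list, 3 without AVF+NX 1, 3 without AVF+NX 2, 3 without Sham 1, 3 without Sham 2 and 3 without Sham 3 in the proteasome list and 4 without Sham 1 and 4 without Sham 3 in the translation list. Also, 5 of 25 splicing factors rose (20%) and 2 fell (8%), and 3 of 28 cholesterol genes fell (10.7%) and 2 rose (7.14%). Of 30 angiogenic and Notch genes 4 rose (13.3%) and 3 fell (10%). Of 22 cell cycle inhibitors and p53 targets 4 rose and 4 fell (18.2% each). Over all genes tested 15.4% rose and 18.6% fell.

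Ranked by p, the leading genes were not all of known cardiac lists. Fkbp2, a prolyl isomerase of the endoplasmic reticulum, was at 7.86, 7.67, 7.23 and 6.77 CPM against 19.96, 18.8 and 17.2 CPM (log2 -1.33, SE 0.12, adjusted p = 0.000466), and the ubiquitin domain gene Ubtd1 at 10.2, 9.92, 12.4 and 12.6 CPM against 34.2, 30.02 and 29.7 CPM (log2 -1.48, SE 0.14, adjusted p = 0.000466). Lbh, a regulator of cardiac development, was at 174, 171, 190.3 and 199 CPM against 347, 364 and 353 CPM (log2 -0.95), Efnb3, an ephrin ligand, at 70.9, 79.1, 71.2 and 87.9 CPM against 198, 199 and 185 CPM (log2 -1.33), and Trabd at -1.02 on the log2 scale. On the other side Plekhg1, an activator of small GTPases, was at 55.2, 55.2, 49.1 and 45.1 CPM against 26.4, 21.5 and 23.1 CPM (log2 1.11, SE 0.12, adjusted p = 0.000613) and Ranbp9, a scaffold protein, at 46.01, 51.01, 52.04 and 47.9 CPM against 28.03, 27.1 and 28.3 CPM (log2 0.83). None of these 7 overlapped between the groups, and none lost its call when each of the 7 libraries was left out in turn. They were picked by their small p in these same libraries, so both properties follow in part from that choice. All 7 were called after index adjustment, at -1.05, -1.24, -0.88, -1.05, -0.77, 1.04 and 0.60 in the order named. That fit holds the same libraries, so these calls also follow in part from the choice and are no separate evidence.

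Among the largest falls were genes in which the NX hearts follow the index. Rmrp, the RNA of a ribonuclease that trims ribosomal and mitochondrial RNA, was at 357, 326, 239 and 377 CPM against 2555, 2180.3 and 2296 CPM (log2 -2.85). NX hearts 1 to 4 were at 2242, 182, 317 and 1888 CPM, the index-adjusted value was -0.30, and its call ended without AVF+NX 2 or 3 or Sham 1 (adjusted p = 0.0524 to 0.0557). Scand1, a short zinc finger cofactor, was at 15.2, 14.2, 10.1 and 18.4 CPM against 74.2, 78.8 and 76.7 CPM, with NX hearts at 61.4, 14.1, 16.03 and 60.6 CPM (log2 -2.43, index-adjusted -0.83). Among the leading rises, Btg3, an antiproliferative gene, was at 10.2, 10.4, 8.79 and 4.902 CPM against 3.34, 1.76 and 3.28 CPM (log2 1.62, SE 0.31, adjusted p = 0.00351, index-adjusted 1.29).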

How the data were processed

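RNA from 11 heart libraries (4 AVF+NX, 4 NX, 3 Sham) was measured as poly(A), strand-specific RNA-seq. The authors deposited raw counts per gene, 1 file per library, with Ensembl gene IDs, coordinates and lengths, per the file headers. Per the submitters' processing notes, Trimmomatic 0.36, STAR 2.5.2b, Subread 1.5.2 and featureCounts are named, with no role or order. Build and strand setting: not given in the sources used here. Gene coordinates are therefore those of the files. Symbols were taken from the authors' deposited tables, which also hold the authors' log2 fold changes and p-values, made with a tool that the headers do not name. For AVF+NX against Sham these tables list 13283 genes, with 5360 at an adjusted p below 0.05 (2595 higher, 2765 lower), in the authors' deposited table. Another 46 columns of per-library values in those tables were not used.

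Counts were fitted with edgeR 4.0.16 (filterByExpr, TMM, robust quasi-likelihood F test, the 3 heart groups in 1 fit, R 4.3.3), with Benjamini-Hochberg adjustment over the 12794 genes tested. CPM are counts scaled to the TMM-adjusted totals. Single values per library were tested by exact permutation of the 7 libraries, two-sided. Genes tested held at least 99.9% of the counts of each library. Replicates of a group differed beyond sampling noise (lowest chi-square per degree of freedom 6.50). The scripts were tested on simulated data. Alternatives were DESeq2 1.42.0, limma voom 3.58.1, other normalisation, filters, covariates and libraries.

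The members, the gene lists and the tests were chosen with earlier results of these data known. The rule for named genes took the largest and the most significant changes, up to 5 called and 3 uncalled members of each list, and a set of heart genes. Of the genes printed, some fall outside it and were named after their values were seen. Some genes under the rule are not reported here. Promoters were RefSeq sequences of build GRCr8, matched by symbol for 10012 genes, of which 8786 were tested. Kidney libraries were not analysed here.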

Additional observations from a re-analysis of the deposited data

Results flagged for a closer look

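In 458 groups of 4 libraries checked among the printed genes and the library measures, 12 held 1 library far from the other 3 by Dixon's test. Chance flags about 1 in 20 groups.

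In the AVF+NX group, replicate 4 had 57.0 CPM of P4ha1 while the others had 80.2–81.8 CPM. Replicate 1 had 17.7 CPM of Oasl2 against 9.27–9.99 CPM in the others. Replicate 1 also had 5.99 CPM of H2afz, with 7.75–8.11 CPM in the others. Rb1 was lowest in replicate 4, at 32.2 CPM against 37.9–39.0 CPM.

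In the NX group, replicate 1 had 16.5 CPM of Mki67 and 7.39 CPM of Top2a, while the other 3 hearts had 6.54–7.36 CPM and 2.14–2.89 CPM. Replicate 3 had 44.5 CPM of Emcn against 34.1–35.5 CPM, 28.1 CPM of Islr against 16.5–18.1 CPM and 379 CPM of Ptprb against 305–311 CPM.

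Among summed markers, macrophages and monocytes reached 631 CPM in AVF+NX replicate 1, with 500–512 CPM in the others. B and plasma cells were at 369 CPM in AVF+NX replicate 2, with 413–421 CPM in the others. Skeletal muscle was at 2.08 CPM in AVF+NX replicate 1 and at 1.16–1.25 CPM in the others.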

How the results depend on the processing

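Over all genes, 4357 calls became 4369 with DESeq2 size factors, 3997 of 20982 genes with no count filter, 5469 of 12627 with the 7 libraries alone, 4750 by DESeq2, 6203 by limma voom, 4181 with the length trend removed, 3950 with counts thinned to 9605973 and 4334 without mitochondrial and small RNA genes. With log2 total count as a covariate 2 were called, with the small RNA index 58, and with the library set (index above or below 0) as a term, an alternative added after seeing the data, 0 by edgeR, with 1523 at an unadjusted p below 0.05. Removing length and promoter GC trends, also added then, left 2937 of 8786 genes. Leaving out 1 library gave 2724 to 4748 calls. The difference in total counts then ranged from 17169800 to 29233100, in mitochondrial percent from 1.27 to 2.56 and in the index from -1.56 to -1.36.

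Of the 190 called genes printed, none changed direction under the alternatives other than the covariates and the library set, 188 lost their call with log2 total count, 161 lost it with the index and 2 more changed direction there. Residuals of same-numbered libraries correlated between -0.12 and 0.12, and those of differently numbered libraries between -0.21 and 0.22. Same-numbered libraries were thus no more alike than others, but with so few libraries this check cannot exclude a pairing. With the replicate number as a block 4576 genes were called, and Nppa, Acta1, Col1a1 and Nos3 lost their call.

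Log2 fold changes that changed direction follow, for which the cause was not tested. With the block Myl7 was at 0.44, with limma voom at 0.87. With total count Per1 was at 0.0086. With the index Atp2a2 was at -0.047, Cpt1b at -0.061, Tgfb1 at 0.24, C1qa at 0.070, Myl7 at 0.64 and Junb at 0.019. Atp2a2 was at -0.014 with the length trend removed and at -0.066 with length and promoter GC removed. With the library set as a term Ankrd1 was at -0.0065, Furin at 0.078, Atp2a2 at -0.073, Cpt1b at -0.10, Mpc2 at 0.0032, Pdha1 at -0.0050, Slc2a4 at 0.050, Tgfb1 at 0.35, C1qa at 0.47, Myl7 at 0.24, Rrm1 at -0.088, Junb at 0.36, Jund at 0.12, Per1 at 0.39, Rmrp at 0.20, Ppard at 0.017, Cox8b at 0.072, Sox17 at 0.22, Nos3 at 0.032 and Higd1a at 0.0043. Leaving out 1 library moved Myh7 between -0.57 and 0.083 and Myl7 between -0.86 and 1.94, the adipocyte sum difference between -8.88 and 29.96 CPM and that of skeletal muscle between -0.41 and 0.16 CPM.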
